A study of Mus musculus with 6 samples.

Results

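The cells described here are 4020 CD8 T cells of the mouse pancreatic lymph node that carried RNA of at least 2 of 6 genes linked to activation and memory, Ccl5, Cxcr3, Nkg7, Il2rb, Gzmk and Eomes. They were chosen from single-cell RNA counts by a rule that read those counts themselves. A kept barcode had at least 500 unique molecular identifiers (UMIs, which tag single captured RNA molecules), at least 300 genes and at most 10% mitochondrial UMIs. A CD8 T cell had a UMI of Cd8b1 and of Cd3d, Cd3e or Cd3g, and none of Cd4, Cd79a, Trdc, Mki67 or Top2a. The gated cells are 4020 of 9248 CD8 T cells and of 56310 kept barcodes. The study sequenced 1 library from each of 6 mice on the droplet platform of 10x Genomics. The group labelled Arfloxed CD4-Cre+ (here Cre-positive 1 to 3) and the group labelled Arfloxed CD4-Cre- (Cre-negative 1 to 3) had 3 mice each. By their labels both groups carried the floxed allele and differed in the CD4-Cre transgene. Whether they were littermates is not stated in the labels. CD4-Cre acts in T cells from a stage of thymic development at which Cd4 is expressed, before CD4 and CD8 cells part, so the recombinase is active in the CD8 lineage too. Strain, sex, age and the floxed exon are not stated in the labels.

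CD8 T cells recognise peptides on MHC class I molecules and kill infected or transformed cells. A naive cell recirculates through lymph nodes, guided by the chemokine receptor Ccr7, and is kept quiescent by transcription factors such as Lef1, Tcf7 and Klf2. After antigen the cell loses part of that programme and gains cytotoxic granule genes, chemokines such as Ccl5, the interleukin 2 and 15 receptor chain Il2rb and the inflammatory chemokine receptor Cxcr3, under the T-box factors Eomes and Tbx21. The pancreatic lymph node drains the pancreas and is where T cells first meet islet antigens in mouse models of autoimmune diabetes.

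The gated cells numbered 681, 906 and 593 in Cre-positive mice and 595, 590 and 655 in Cre-negative mice. Their UMI counts, summed per mouse, came to between 4307130 and 6840873. Median depth lay between 6015 and 7197 UMIs per cell in Cre-positive mice and between 6447 and 7945 in Cre-negative mice. Levels below are CPM, the UMIs of a gene relative to a total of 1000000 UMIs in the summed cells, as a mean ± SD over mice. Of the kept barcodes, 370 sequences occurred in more than 1 library, and among gated cells 2 did. A doublet score called 294 of the 4020 gated cells doublets at a fixed rate, and these stayed in unless stated.

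Most gated cells entered through the same pair of genes, Nkg7 and Il2rb. Nkg7, whose product sits in cytotoxic granules, was detected in 98.4%, 98.8% and 99.3% in Cre-positive mice and 99.2%, 99.3% and 99.1% in Cre-negative mice. Il2rb was detected in 75.5%, 81.7% and 80.9% in Cre-positive mice and 83.9%, 78.8% and 80.0% in Cre-negative mice. The other genes of the gate were detected far less often. Eomes was found in 22.6% of gated cells, the chemokine Ccl5 in 22.4%, Cxcr3 in 17.0% and the granzyme Gzmk in 0.920%. In B cells, defined by UMIs of Cd79a and Ms4a1 without those of CD3 genes and with a median of 4414 UMIs against 6861 in gated cells, the shares were 0.850% for Nkg7, 0.774% for Il2rb, 0.0850% for Eomes, 3.82% for Ccl5 and 0.491% for Cxcr3. Gzmk was seen in 0 of 10589 B cells, which allows a share of up to 0.0283% for counting error alone. Cells with Nkg7 and Il2rb and none of the other 4 genes made up 2145 of the 4020, with 47.1%, 55.6% and 52.3% in Cre-positive mice and 53.6%, 55.4% and 55.6% in Cre-negative mice. The remaining 1875 had at least 1 of Ccl5, Cxcr3, Gzmk and Eomes. Outside the genes of the gate, the cells with Nkg7 and Il2rb alone were near the CD8 T cells without the 6 genes in Cd44, Gzmm and Lef1. Cd44, the hyaluronan receptor that marks antigen-experienced T cells, was at 15.2 ± 3.40 CPM in them and 15.2 ± 3.90 CPM without the 6 genes, Gzmm at 1.29 ± 0.843 and 0.980 ± 1.52 CPM, and Lef1 at 678 ± 47.5 and 730.1 ± 71.3 CPM (SD, n = 6 mice, no test). In the 1875 others Cd44 was at 35.6 ± 3.44, Gzmm at 30.2 ± 5.56 and Lef1 at 499 ± 55.8 CPM. Whether the 2145 cells are activated or memory cells was not tested, and Cd44, Gzmm and Lef1 alone cannot decide it. The doublet score called 12.9% of the cells without the 6 genes doublets, against 7.93% of the 2145 cells. The chemokine Xcl1 went the other way. Thinned to equal depth as described below, it was found in 4.58% of gated cells and 1.13% of those without the 6 genes. These Xcl1 shares cover the whole gate, not the 2145 cells alone. The whole set is called gated cells below. Cells with 1 of the 6 genes, described below, had less Cd44 than the 2145 cells, so the reading depends on the class set beside them.

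The genes that the gate read differ in what stands before their start sites, and the 2 shown here admitted the most and the fewest cells. The stretch is the 250 bases upstream of the RefSeq start on GRCm38.p6, in the direction of the gene, with capitals for matches on either strand to a T-box motif (GGTGTGA), a RUNX motif (TGTGGT) and a STAT motif (TTCCNNGAA). Nkg7 lies at chr7:43436888-43437137 on the plus strand and Gzmk at chr13:113180966-113181215 on the minus strand.
Nkg7: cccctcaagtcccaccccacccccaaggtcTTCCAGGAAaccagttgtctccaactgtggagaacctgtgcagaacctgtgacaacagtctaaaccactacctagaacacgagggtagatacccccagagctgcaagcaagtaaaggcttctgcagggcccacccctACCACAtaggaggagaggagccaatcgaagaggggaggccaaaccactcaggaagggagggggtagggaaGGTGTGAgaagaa
Gzmk: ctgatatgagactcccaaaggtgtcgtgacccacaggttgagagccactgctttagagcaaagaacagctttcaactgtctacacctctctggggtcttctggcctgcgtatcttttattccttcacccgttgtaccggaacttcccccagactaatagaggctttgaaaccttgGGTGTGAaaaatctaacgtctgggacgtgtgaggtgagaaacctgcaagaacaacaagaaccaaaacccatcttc
The Nkg7 stretch held 1 match to each of the 3 motifs and the Gzmk stretch 1 to the T-box motif, with no overlap between matches. Of 32851 promoters of this length, 3.33% held the T-box motif, 14% the RUNX motif and 4.06% the STAT motif. Cxcr3 had 1 RUNX match and Eomes none. A match describes the letters of this window only. Ccl5 and Il2rb had no entry in the table used and are named only.

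**Figure D1:**
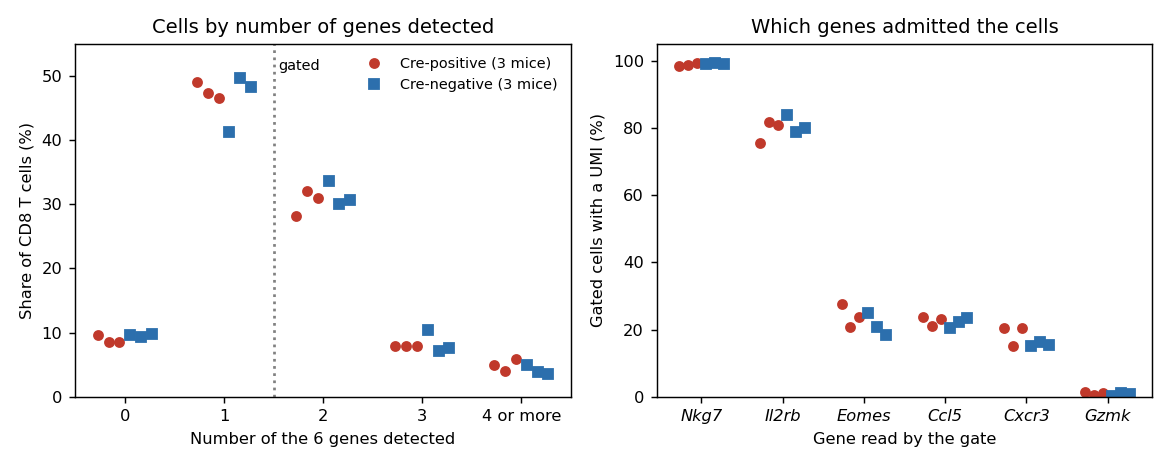
Share of CD8 T cells of each mouse by the number of the 6 genes detected (left, % of CD8 T cells) and share of gated cells with a UMI of each gate gene (right, %), with a point for each of 3 Cre-positive and 3 Cre-negative mice. Cells with 1 gene were the most numerous in every mouse, and Nkg7 was present in at least 98.4% of gated cells of every mouse and Gzmk in at most 1.47%.

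CD8 T cells without any of the 6 genes were few, and those with 1 were close to those with 2 in Lef1 but not in Cd44 or Xcl1. Of all CD8 T cells, 853 had none, 4375 had 1, 2857 had 2, 748 had 3 and 415 had 4 or more. Of the 4375 cells with 1 gene, just outside the gate, 4059 had Nkg7. The median depth was 4538 UMIs with none, 5636 with 1, 6464 with 2, 7767 with 3 and 8953 with 4 or more, so detection and depth moved together. Between the cells just outside and just inside the gate, Lef1 stood at 655 ± 46.6 CPM with 2 genes and 706 ± 61.8 CPM with 1 (SD, n = 6 mice), and Cd44 at 18.1 ± 3.95 and 9.99 ± 1.04 CPM. Xcl1, a chemokine that draws cross-presenting dendritic cells, stood at 74.5 ± 27.2 and 11.1 ± 8.83 CPM. No test is given between these sets, since the gate itself separates them.

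The naive-cell genes Ccr7 and Lef1 were somewhat lower in gated cells but still abundant. Ccr7 was 291, 269.7 and 207 CPM in Cre-positive mice and 279, 305 and 262 CPM in Cre-negative mice, against 352 ± 71.3 CPM in CD8 T cells without the 6 genes (n = 6), and lower in gated cells in 6 of 6 mice. Lef1, Klf2 and S1pr1, which encodes a receptor for exit from the node, were also lower in 6 of 6 mice, with 587 against 730.1 CPM for Lef1, 1281 against 1685 for Klf2 and 338 against 475 for S1pr1. Tcf7, which sustains naive and central memory cells, was at 323 ± 32.0 and 367 ± 59.1 CPM, a difference smaller than the spread between mice in the cells without the 6 genes. By share of cells, 74.6% of gated cells had a Ccr7 UMI, against 68.2% of the shallower cells without the 6 genes. Thinned to 2000 UMIs per cell, the Ccr7 shares were 39.3% in gated cells and 46.9% without the 6 genes.

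Some genes of effector cells were seen in few gated cells, while the 14 genes of the cytotoxic machinery list, none of them a gene of the gate, summed to a mean of 1071 CPM in gated cells and 923 CPM in CD8 T cells without the 6 genes. Klrg1, a receptor of short-lived effector cells, had a UMI in 1 of 4020 gated cells, Ly6c2 in 3, Cx3cr1 in 6, the granzymes Gzma and Gzmb in 23 and 34, and the inhibitory receptor Pdcd1 in 44. The shares in gated and in B cells were 0.0249% and 0.0283% for Klrg1, 0.0746% and 0.113% for Ly6c2, 0.149% and 0.161% for Cx3cr1, 0.572% and 0.0472% for Gzma, 0.846% and 0.0472% for Gzmb, and 1.09% and 0.0756% for Pdcd1. Cd44 was detected in 13.3% of gated cells and 5.86% of CD8 T cells without the 6 genes. After thinning to 2000 UMIs, these were 4.14% ± 0.597 and 3.27% ± 1.56 (SD, n = 6 mice).

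Several genes of activated, memory and NK-like cells had higher levels in the cells with 4 or more of the 6 genes than in those with fewer. Gzmm, a granzyme of innate-like and memory lymphocytes, stood at 86.8 ± 19.6 CPM in these 415 cells, 17.6 ± 6.85 CPM with 3 genes and 1.30 ± 0.752 CPM with 2. Per mouse, Gzmm in the cells with 4 or more genes was 107, 71.8 and 93.1 CPM in Cre-positive mice and 55.3, 91.3 and 102 CPM in Cre-negative mice, and the groups overlapped. Cd44 was 51.6 ± 9.22 CPM with 4 or more genes and 15.2 ± 3.90 CPM with none, and the calcium-binding protein gene S100a6 was 104 ± 34.2 CPM with 4 or more and 4.39 ± 2.43 CPM with 2. The Ly49 receptor genes Klra1 and Klra7, better known from NK cells, reached 154 and 40.0 CPM with 4 or more genes, with 2.07 and 0.319 CPM at 2. Their counting can be shared among near-identical copies of the family, so single members are uncertain. Interferon gamma (Ifng) was 35.2 ± 20.1 CPM with 4 or more genes and 5.84 ± 3.48 CPM with 2, and the chemokine Ccl4 was 89.8 ± 74.9 and 6.95 ± 4.32 CPM. The receptor chains Il18r1 and Il18rap, through which interleukin 18 acts, were at 67.9 and 26.1 CPM, against 17.9 and 1.91 CPM with 2.

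Other genes ran the opposite way with the number of genes detected. Lef1 was 359 ± 58.7 CPM with 4 or more genes and 730.1 ± 71.3 CPM with none. The binding protein gene Igfbp4, a naive-cell transcript, was 46.1 ± 13 CPM with 4 or more genes, against 295 ± 15.4 CPM with 2 and 216 ± 25.2 CPM with none, so its level was not highest in the cells with none. The gut-homing receptor Ccr9 was 18.5 and 139 CPM, and the integrin chain Itgae, which is carried by resident cells and also by recent thymic emigrants of the CD8 lineage, 15.9 and 60.4 CPM. The transcriptional regulator Id2 was 81.8 ± 24.2 and 255 ± 50.7 CPM. Tcf7 did not follow Lef1 and stood at 339 ± 39.1 CPM with 4 or more genes and 367 ± 59.1 CPM with none. The T-box factor Tbx21 stayed low, at 14.8 ± 6.24 CPM with 4 or more genes. All these steps are descriptions, and the rise of depth along them was not separated from the levels except by the thinned shares. Thinned to 2000 UMIs, Cd44 was found in 12.3% of cells with 4 or more genes and 3.27% of cells with none, Gzmm in 12.3% and 0.216%, and Lef1 in 49.96% and 70.8%.

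**Figure D2:**
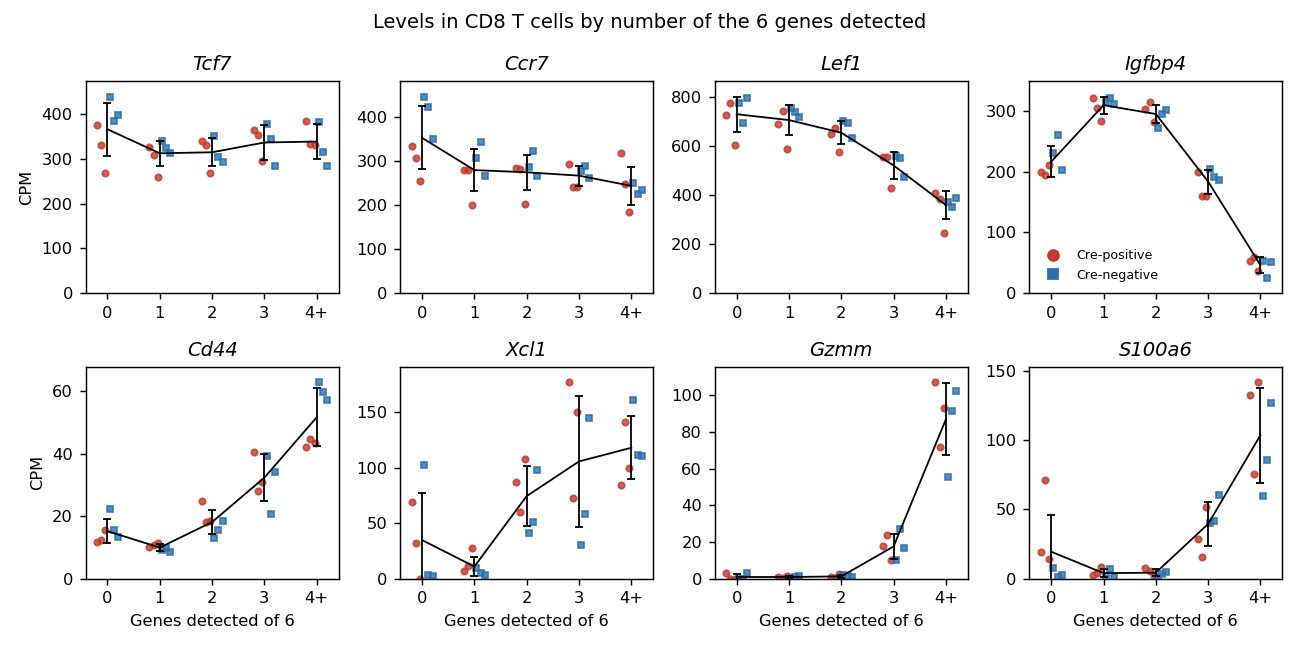
Levels (CPM of the summed cells) of 8 genes in CD8 T cells with 0, 1, 2, 3 and 4 or more of the 6 genes detected, with a point per mouse (circles for 3 Cre-positive and squares for 3 Cre-negative mice) and the mean ± SD over 6 mice in black. Gzmm stays low up to 2 genes, the means of Gzmm and S100a6 are highest at 4 or more, that of Lef1 is lowest there, and that of Tcf7 changes less.

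The gated cells also differed from CD4 T cells that met the same count of genes. That class, with a UMI of Cd4 and none of Cd8a, Cd8b1 or Foxp3, had 351 cells in the 6 mice. The gated CD8 cells were not filtered on Foxp3 or Cd8a. The helper-type activation genes were lower in gated CD8 cells in 6 of 6 mice, with 34.1 ± 3.09 and 315 ± 79.4 CPM for the inhibitory receptor Ctla4, 5.96 ± 1.03 and 179 ± 65.8 CPM for the factor Maf, and 25.6 ± 2.90 and 148 ± 10.4 CPM for Cd44. Lef1 was higher in the gated CD8 cells in 6 of 6 mice, at 587 ± 51.2 CPM against 232 ± 66.4 CPM in the CD4 class. Perforin (Prf1) was at 42.4 ± 3.05 CPM in gated CD8 cells and 5.36 ± 3.73 CPM in the CD4 class. It was at 34.8 ± 8.97 CPM in CD8 T cells without the 6 genes.

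T cell receptor V segments showed no mouse dominated by a single segment. The beta segment most often detected in gated cells was Trbv12-2, in a mean of 17.0% of them (13.7% to 20.9%), counted over the 139 to 193 cells per mouse with any Trbv UMI. In the CD8 T cells with 1 of the 6 genes it was in 18.1% of them (15.0% to 20.4%). In gated cells Trbv13-2 was in 12.5% of them (6.94% to 18.0%), with the highest share in Cre-positive 1 and the lowest in Cre-negative 2. Among alpha segments Trav16n led, in 22.6% of them (17.4% to 26.2%) over 165 to 249 cells per mouse. V segments of a family are close in sequence and counts may be split among them.

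The share of CD8 T cells that passed the gate did not differ beyond the spread between mice. It was 41.2%, 44.1% and 44.8% in Cre-positive mice and 49.1%, 41.0% and 41.9% in Cre-negative mice. Cre-negative 1, whose cells were the deepest, was the highest, and the other 5 mice lay within 4 percentage points. The means were 43.4% ± 1.90 in Cre-positive mice and 44.0% ± 4.44 in Cre-negative mice, a difference of -0.64 percentage points (SD, n = 3 each; exact two-sided permutation p = 0.9, where 3 mice against 3 cannot go below 0.1). After thinning each cell to 2000 UMIs Cre-positive mice had a mean of 16.2% ± 2.36 and Cre-negative mice one of 14.8% ± 0.445 (exact permutation p = 0.5). The direction of the difference turned without Cre-positive 1 (0.44) and without Cre-negative 1 (1.91 percentage points).

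Between genotypes, 3 genes passed in the gated cells, and all were higher in Cre-positive mice. They were Trim59, H2-Ab1 and Atf3, or 0.0311% of 9653 genes tested with the quasi-likelihood test of edgeR on the 6 sums, with Benjamini-Hochberg adjustment at 0.05. An unadjusted p under 0.05 was met by 567 genes (5.87%), and non-overlapping groups were seen for 10.5% of genes. The count was 9 without Cre-positive 2, 7 without Cre-positive 3, 1 without Cre-negative 2 and 8 without Cre-negative 3. The genes that the gate reads got no call. For them Nkg7 was 704, 603 and 668 CPM in Cre-positive mice and 585, 663 and 622 CPM in Cre-negative mice, Il2rb 195, 199 and 203 CPM in Cre-positive mice and 195, 190.4 and 193 CPM in Cre-negative mice, and Ccl5 429, 262 and 444 CPM in Cre-positive mice and 204, 371 and 424 CPM in Cre-negative mice, with overlapping groups in each. Eomes was 62.1, 42.4 and 46.4 CPM in Cre-positive mice and 53.3, 39.9 and 38.3 CPM in Cre-negative mice, Cxcr3 was 45.7, 30.3 and 41.4 CPM in Cre-positive mice and 24.1, 30.4 and 31.9 CPM in Cre-negative mice, and Gzmk, with few UMIs, was 5.02, 2.05 and 3.44 CPM in Cre-positive mice and 1.81, 3.48 and 3.30 CPM in Cre-negative mice.

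Trim59 encodes a membrane-bound ubiquitin ligase of the tripartite motif family. It lies on chromosome 3, 69035288 to 69044755 (mm10, ENSMUSG00000034317). Its level was 55.9, 51.7 and 44.7 CPM in Cre-positive mice and 37.8, 31.1 and 30.4 CPM in Cre-negative mice, and every Cre-positive mouse lay above every Cre-negative mouse. The means were 50.8 ± 5.70 CPM in Cre-positive mice and 33.1 ± 4.10 CPM in Cre-negative mice (SD, n = 3 each; log2 fold change 0.62, SE 0.108, adjusted p = 0.0157 by edgeR). It had a UMI in 593 of 2180 Cre-positive and 356 of 1840 Cre-negative gated cells. The call was lost without Cre-positive 1 (adjusted p = 0.0686), Cre-negative 2 (0.178) or Cre-negative 3 (0.0758), with log2 fold changes of 0.56, 0.60 and 0.58. In gated cells of at most 5% mitochondrial UMIs none of the 3 genes passed (adjusted p = 0.0732 for Trim59).

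H2-Ab1 and Atf3, the other passing genes, had most of their Cre-positive UMIs in a few cells, described after their levels. H2-Ab1 encodes the beta chain of an MHC class II molecule, which B cells and dendritic cells, but not mouse CD8 T cells, are known to display (chromosome 17, 34257689 to 34269419, ENSMUSG00000073421). Its level was 48.4, 49.0 and 52.0 CPM in Cre-positive mice and 16.7, 15.8 and 16.9 CPM in Cre-negative mice, without overlap (log2 fold change 1.60, SE 0.117, adjusted p = 2.37e-09 by edgeR). Its call was lost with doublets removed (adjusted p = 0.85), at least 3 of the 6 genes (0.834) and cells with markers of other types removed (0.319). The log2 fold changes were then 1.32, 2.34 and 1.26, so the difference kept its direction where the call was lost. Atf3, a stress-induced transcription factor gene (chromosome 1, 191170296 to 191218039), was 7.76, 5.70 and 6.01 CPM in Cre-positive mice and 1.81, 1.16 and 2.20 CPM in Cre-negative mice (log2 fold change 1.88, SE 0.320, adjusted p = 0.0157). With a mean under 5 CPM it is named after its values were seen. The call of Atf3 was lost without Cre-positive 1 (adjusted p = 0.066), Cre-negative 1 (0.131) or Cre-negative 2 (0.155).

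**Figure D3:**
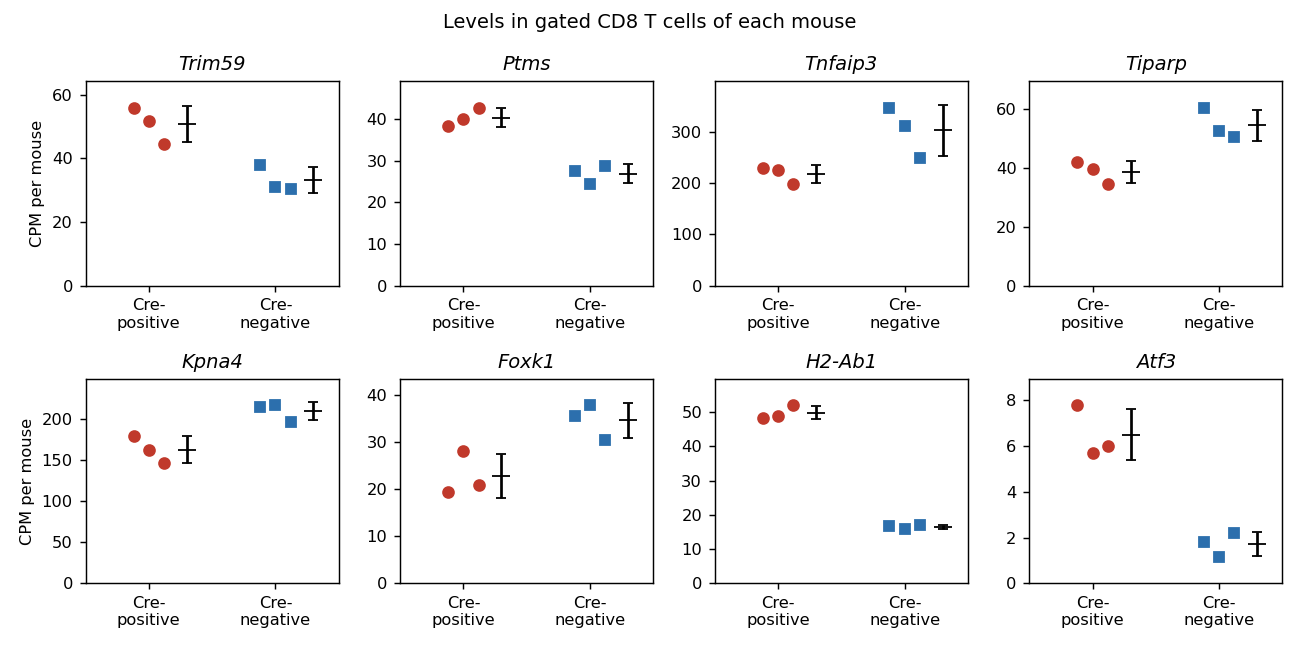
Levels (CPM of the summed gated cells) of 8 genes in each of 3 Cre-positive and 3 Cre-negative mice, with the mean ± SD of each group in black. The groups do not overlap for any of the 8 genes, of which Trim59, H2-Ab1 and Atf3 passed. The 8 were taken from genes that passed or had the smallest p in these same sums, so the lack of overlap is no separate support. Of all 9653 genes tested, 10.5% had groups without overlap.

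The class II UMIs of Cre-positive mice came mostly from single cells, and 24 gated cells of the 6 mice had at least 20 UMIs of Cd74, H2-Aa, H2-Ab1 and H2-Eb1 together. There were 5, 9 and 4 such cells in Cre-positive mice and 0, 1 and 5 in Cre-negative mice. They held 74.9% of the class II UMIs of gated cells in Cre-positive mice and 18.1% in Cre-negative mice. Of the H2-Ab1 UMIs they held 542 of 789 in Cre-positive mice and 23 of 228 in Cre-negative mice. Of the Atf3 UMIs they held 78 of 101 in Cre-positive mice and 2 of 24 in Cre-negative mice. They also held UMIs of Fscn1, a gene of migratory dendritic cells, with 106 of 161 in Cre-positive mice and 19 of 57 in Cre-negative mice. The dendritic protease gene Napsa had 75 of 114 UMIs there in Cre-positive mice and 4 of 45 in Cre-negative mice. By the doublet score 11 of the 24 were called doublets. A UMI of Ccl5, a gene that the gate reads, was found in 19 of the 24.

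Without those 24 cells Trim59 was the gene that passed (0.0104% of 9616 tested). Its level was then 56.1, 52.0 and 44.9 CPM in Cre-positive mice and 37.8, 30.9 and 30.7 CPM in Cre-negative mice (log2 fold change 0.63, SE 0.109, adjusted p = 0.0291 by edgeR). H2-Ab1 was 15.2, 14.1 and 18.7 CPM in Cre-positive mice and 16.7, 13.9 and 13.8 CPM in Cre-negative mice, and the groups overlapped (log2 fold change 0.11, SE 0.160, adjusted p = 0.956). The 24 cells were chosen by their UMIs of Cd74, H2-Aa, H2-Ab1 and H2-Eb1. Lower values of these genes without them follow from that choice and are no test. Cd74, the invariant chain of class II, had not passed with all cells (1.67, adjusted p = 0.162), and stood at -0.26 without them. Napsa stood at 1.17 with all cells and -0.23 without them, and H2-Eb1 at 1.33 and -0.31, and neither passed. Atf3 was then 0.924, 1.92 and 1.30 CPM in Cre-positive mice and 1.81, 1.16 and 1.78 CPM in Cre-negative mice, with overlapping groups, and too low to be tested.

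**Figure D4:**
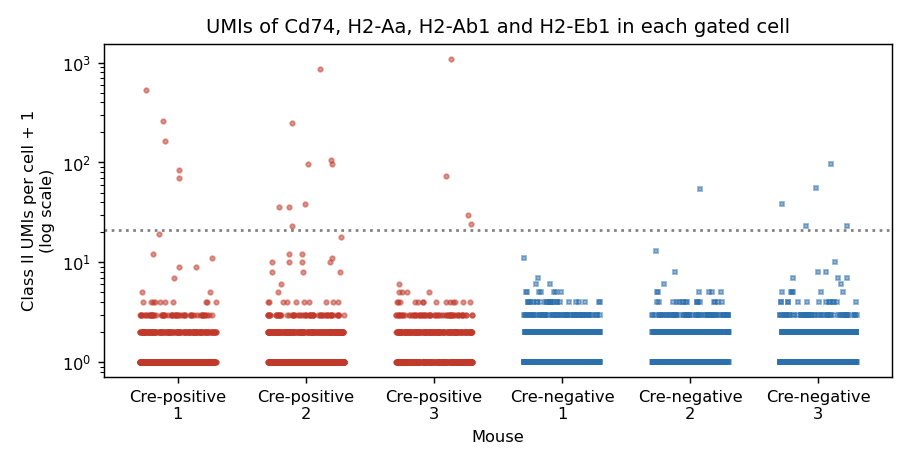
UMIs of Cd74, H2-Aa, H2-Ab1 and H2-Eb1 plus 1 (log axis) in each gated cell of the 6 mice, 1 point per cell. The dotted line marks 20 UMIs, and 18 Cre-positive and 6 Cre-negative cells lie on or above it.

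**Figure D5:**
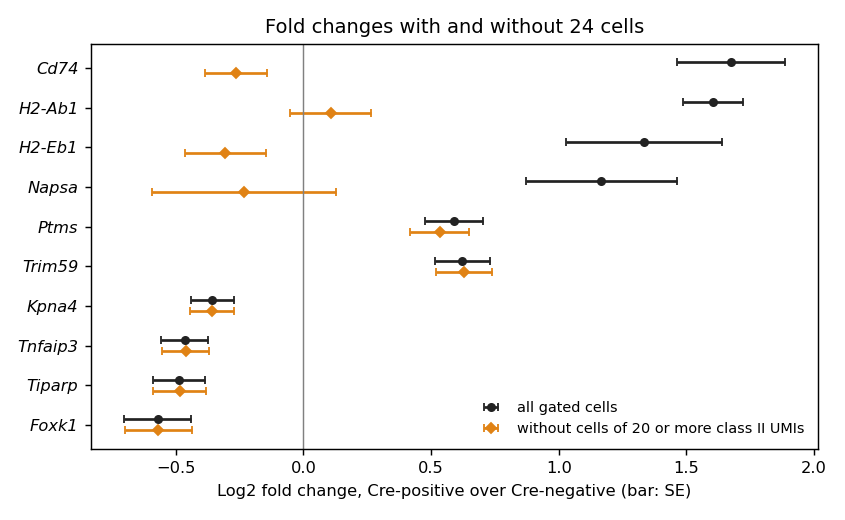
Log2 fold changes (Cre-positive over Cre-negative, bars for the SE) of 10 genes in all gated cells and without the 24 cells of 20 or more class II UMIs. Cd74, H2-Ab1, H2-Eb1 and Napsa move to between -0.31 and 0.11, while Trim59 has 0.62 and 0.63 and Tnfaip3 -0.46 and -0.46. The 24 cells were chosen on UMIs that include Cd74, H2-Ab1 and H2-Eb1, so the fall of these genes follows from the choice.

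Further genes of small p missed the threshold, and the groups of those named here, from Ptms to Xrcc6, did not overlap. They were named for their small p, so the lack of overlap is no separate support. Ptms, which encodes the small acidic protein parathymosin, was 40.3 ± 2.21 CPM in Cre-positive mice and 26.9 ± 2.29 CPM in Cre-negative mice (log2 fold change 0.59, SE 0.114, adjusted p = 0.0519). Tnfaip3, which encodes A20, an inhibitor of NF-kB signalling, was 231, 226 and 198 CPM in Cre-positive mice and 347, 313 and 250.2 CPM in Cre-negative mice, lower in every Cre-positive than in every Cre-negative mouse (log2 fold change -0.46, SE 0.0927, adjusted p = 0.0635). Its adjusted p was 0.0145 by DESeq2 and 0.00227 by edgeR when Cre-negative 3 was left out, and lay between 1.11e-04 and 0.782 in 20 alternatives. The ADP-ribosyltransferase gene Tiparp stood at -0.49 (adjusted p = 0.107), the forkhead gene Foxk1 at -0.57 (0.193), the nuclear import gene Kpna4 at -0.36 (0.234) and the DNA repair gene Xrcc6 at 0.67 (0.368) on the log2 scale. Kpna4 lies on chromosome 3, 69067149 to 69127113, Tiparp on chromosome 3, 65528410 to 65555518, the phosphatase gene Ppm1l on chromosome 3, 69316861 to 69560802 and the latexin gene Lxn on chromosome 3, 67457998 to 67463926. Ppm1l was 4.66 ± 0.0806 CPM in Cre-positive mice and 7.44 ± 0.479 CPM in Cre-negative mice (log2 fold change -0.67, SE 0.229, adjusted p = 0.739). Lxn, too low to be tested, had 8, 19 and 7 UMIs in Cre-positive mice and 1, 3 and 5 in Cre-negative mice. Trim59, Tiparp, Lxn, Ppm1l and Tnfaip3 had been noted in earlier results from larger classes of these cells, so they are no independent support. Pmepa1, noted there too, was 73.3 ± 3.08 CPM in Cre-positive mice and 71.5 ± 5.77 CPM in Cre-negative mice (log2 fold change 0.04, adjusted p = 0.97).

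The neighbouring CD8 cells outside the gate gave few calls too. In the 4375 cells with 1 of the 6 genes, 1 of 9380 genes passed (0.0107%), and it was Tnfaip3, lower in Cre-positive mice. There Tnfaip3 was 197, 218 and 168 CPM in Cre-positive mice and 352, 301 and 251 CPM in Cre-negative mice (log2 fold change -0.61, SE 0.0942, adjusted p = 0.00236 by edgeR). Trim59 had a log2 fold change of 0.59 in these cells (adjusted p = 0.0533). In the 853 cells without the 6 genes, 1 of 5787 genes passed (0.0173%), Id3, which encodes an inhibitor of E protein transcription factors and was higher in Cre-positive mice. It was 63.0, 89.7 and 78.6 CPM in Cre-positive mice and 27.3, 48.3 and 30.9 CPM in Cre-negative mice (log2 fold change 1.14, SE 0.222, adjusted p = 0.0218). The call of Id3 was lost without Cre-positive 2 or Cre-negative 1 and with DESeq2, which called 0 genes (91 at an unadjusted p under 0.05), and the count was 7 without Cre-positive 3 and 4 without Cre-negative 3. In gated cells Id3 was 28.8, 40.6 and 60.8 CPM in Cre-positive mice and 26.1, 26.9 and 36.3 CPM in Cre-negative mice, with overlapping groups (log2 fold change 0.56, adjusted p = 0.883). Trim59 stood at 0.02 (SE 0.221) in the cells without the 6 genes. Its difference between the classes was 0.61 (SE 0.236, adjusted p = 0.983 in a fit of interaction to 12 sums, blocked by mouse), so it was not shown to differ. For Tnfaip3 the difference was -0.09 (SE 0.111, adjusted p = 0.983). The interaction passed for 2 of 9194 genes (0.0218%), H2-Ab1 and H2-Eb1, and for none without the cells of 20 or more class II UMIs, where 419 genes had an unadjusted p under 0.05. Those cells were chosen on UMIs that include these 2 genes, so this loss is no test. Of the 24 gated ones 19 carried Ccl5, which the cells without the 6 genes lack by definition. The gate itself thus helped to set in which class such cells fell, and the interaction cannot be told apart from it.

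Within the gate the 2145 cells with Nkg7 and Il2rb alone and the 1875 with any of Ccl5, Cxcr3, Gzmk and Eomes gave similar values for Tnfaip3. Its log2 fold change was -0.47 in the cells with any of the 4 (adjusted p = 0.0479 by edgeR) and -0.48 in the others (0.0974). Trim59 stood at 0.52 (0.365) and 0.72 (0.0974). H2-Ab1 stood at 1.95 and 0.73. The differences between these parts of the gate were not tested.

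Apart from H2-Ab1 among the B cell markers no gene of the fixed lists passed in the gated cells. The median log2 fold change of all 9653 genes was 0.00, with 50.1% higher in Cre-positive mice, and the 25 naive and quiescence genes had a median of -0.07, with 2 higher and 23 lower. Of these, Lef1 was 566 ± 66.2 CPM in Cre-positive mice and 607 ± 30.4 CPM in Cre-negative mice (log2 fold change -0.09), Klf2 stood at -0.05, the chromatin organiser Satb1 at -0.18 and Foxp1 at -0.03. None of the 25 passed, and 3 of them had non-overlapping groups, all lower in Cre-positive mice, against 5.12% of all genes. Of 26 tested memory and migration genes 13 were higher and 13 lower, with a median of 0.00. The stem-cell antigen gene Ly6a stood at 0.09, the calpactin chain S100a10 at 0.16, and the interleukin 7 receptor Il7r, which supports survival, at -0.24. Of 12 cytotoxic machinery genes 8 were higher and 4 lower, with the proteoglycan Srgn at -0.02, the cathepsin Ctsw at 0.06, Prf1 at -0.01 and Gzmm at 0.27. The killer lectin-like receptors had 4 higher and 3 lower of 7, with 0.11 for Klrd1, the partner chain of NKG2 receptors.

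Secreted cytokines and chemokines had 10 higher and 1 lower of 11, with a median of 0.20. Xcl1 was 106, 73.1 and 116 CPM in Cre-positive mice and 55.1, 60.1 and 109.6 CPM in Cre-negative mice, with overlapping groups (log2 fold change 0.38, SE 0.396, adjusted p = 0.93). Lymphotoxin beta (Ltb), needed to form lymphoid tissue, stood at 0.14 and Ifng at 0.32. Inhibitory and costimulatory receptors had 14 higher and 2 lower of 16, with a median of 0.07, and Cd28 at 0.02 and Ctla4 at 0.05. Interferon-gamma response genes had 25 higher and 7 lower of 32, with a median of 0.09. Non-overlapping groups were found for 6 of them, all higher in Cre-positive mice, against 5.35% of all genes. Among the interferon-gamma response genes the immunoproteasome subunit Psmb9 was 193 ± 10.4 CPM in Cre-positive mice and 170.0 ± 8.47 CPM in Cre-negative mice (log2 fold change 0.19, SE 0.0857, adjusted p = 0.822). Type I interferon response genes had 30 higher and 9 lower of 39, with a median of 0.06 and the tetherin gene Bst2 at 0.36 (adjusted p = 0.747). Antigen-signal and immediate early genes had 22 higher and 8 lower of 30 and a median of 0.10. Their summed level was 5489, 5839 and 6961 CPM in Cre-positive mice and 5646, 5492 and 5722 CPM in Cre-negative mice. The groups overlapped, with Cre-positive 3 the highest and Cre-positive 1 the lowest of the 6. The early activation marker Cd69 was 369.9, 385 and 570.1 CPM in Cre-positive mice and 329.6, 365 and 365 CPM in Cre-negative mice, higher in every Cre-positive mouse (log2 fold change 0.34, SE 0.215, adjusted p = 0.877).

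Lineage transcription factors had 12 higher and 11 lower of 23, with the CD8 factor Runx3 at 0.10, Id2 at 0.03 and Ikzf2, which encodes Helios, at 0.33 (adjusted p = 0.613). Cytokine receptor chains had 6 higher and 14 lower of 20, with the TGF-beta receptor chain Tgfbr2 at -0.25. Chemokine and homing receptors had 8 higher and 10 lower of 18, with S1pr1 at -0.24. Tissue residency genes had 5 higher and 5 lower of 10. The integrin chain Itgae among them was 41.6, 42.4 and 37.8 CPM in Cre-positive mice and 54.5, 52.2 and 51.1 CPM in Cre-negative mice, lower in every Cre-positive than in every Cre-negative mouse (log2 fold change -0.36, SE 0.0985, adjusted p = 0.481), and Cxcr6, the receptor for Cxcl16, stood at 0.29. NF-kB regulators had 14 higher and 8 lower of 22, with Nfkbia at 0.07 and Birc2 at -0.19. Glucocorticoid and androgen response genes had 6 higher and 9 lower of 15, with Tsc22d3, which encodes GILZ, at -0.38 and the kinase Sgk1 at 0.13. TGF-beta response genes had 8 higher and 9 lower of 17, with the inhibitory Smad7 at -0.06. Survival and apoptosis genes had 12 higher and 5 lower of 17, with Bcl2 at 0.02 and the BH3-only gene Bbc3 at -0.43. Phosphatases and signal inhibitors had 13 higher and 13 lower of 26, with Dusp10 at -0.31 (adjusted p = 0.613).

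The mitochondrially encoded and the heat shock genes each lay in 1 direction, and none passed the test. All 13 mitochondrially encoded genes were lower in Cre-positive mice, with a median log2 fold change of -0.09, and their summed level was 40638 to 47021 CPM in Cre-positive mice and 45463 to 50038 CPM in Cre-negative mice. All 10 tested heat shock and dissociation genes were higher, with a median log2 fold change of 0.18, with a summed level of 5943 to 6865 CPM in Cre-positive mice and 5301 to 5935 CPM in Cre-negative mice. Of the heat shock genes Hsp90ab1 was 1829.8 ± 162 CPM in Cre-positive mice and 1514 ± 144 CPM in Cre-negative mice (log2 fold change 0.29, SE 0.0893, adjusted p = 0.623). The naive, interferon and immediate early genes above were measured in the same sums, and the part of RNA quality in their values was not tested. Nuclear RNA had 1 higher and 2 lower of 3, with Malat1 at -0.01.

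Markers of other cell types were detected in the gated cells, and their summed levels follow. The 15 B cell markers summed to 584 to 631 CPM in Cre-positive mice and 367 to 399 CPM in Cre-negative mice, with the class II genes among them, and of 10 tested 7 were higher, 3 lower and H2-Ab1 passed, with a median log2 fold change of 0.24. Without the 24 cells rich in class II UMIs 4 were higher, 6 lower and none passed, with a median of -0.18. The class II genes of this list had served to choose those cells. Ms4a1, which encodes CD20, was detected in 1.22% of gated cells. The 11 NK cell markers summed to 15.2 to 32.4 CPM in Cre-positive mice and 13.9 to 34.4 CPM in Cre-negative mice, with Cma1 at 0 and the defining receptors Ncr1 and Klrb1c in 3 and 2 of 4020 cells. The 16 myeloid and dendritic markers summed to 419 to 502 CPM in Cre-positive mice and 429.8 to 679 CPM in Cre-negative mice, with S100a9 at 0. Lyz2, a macrophage gene, had 1070 UMIs in 36 cells of Cre-negative 1, of which 859 were in 1 cell, and 23 to 259 in the other mice. The 13 innate lymphoid and gamma-delta markers in the feature table summed to 374 to 428 CPM in Cre-positive mice and 371 to 514 CPM in Cre-negative mice, mostly Il7r, with Trdv4 at 0. The iNKT and MAIT markers summed to 61.6 to 74.9 CPM in Cre-positive mice and 54.7 to 66.6 CPM in Cre-negative mice, the CD4 and regulatory T markers to 147 to 172 CPM in Cre-positive mice and 137 to 145 CPM in Cre-negative mice with Foxp3 in 0.846% of cells, and the plasma and stromal markers to 59.2 to 119.8 CPM in Cre-positive mice and 54.1 to 84.7 CPM in Cre-negative mice with both insulin genes at 0. Without the 24 cells 24 interferon-gamma response genes were higher and 8 lower, and the median log2 fold changes were 0.04 in place of 0.16 for survival and apoptosis and 0.05 in place of 0.09 for cytotoxic machinery, while naive and quiescence genes had 2 higher and 23 lower with and without them. Beyond this, the part of other cell types in the values above was not tested list by list.

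Gh, which encodes growth hormone and had been noted before in these data, was seen in few gated cells. A Gh UMI was found in 1, 4 and 1 gated cells of Cre-positive mice and in 0 of the 1840 cells of Cre-negative mice, or 0.147%, 0.442% and 0.169% against 0% (exact two-sided permutation p = 0.1, the smallest that 3 against 3 allow). With doublets removed the Cre-positive mean was 0.134% in place of 0.252%, with Cre-positive 3 at 0 (exact permutation p = 0.4), and thinned to 2000 UMIs a Gh UMI remained in Cre-positive 1 alone. In B cells of the 6 mice pooled, which are not known to make it, the share was 0.529%, at a lower median depth. In the CD8 T cells without the 6 genes, thinned to 2000 UMIs, it was 0.633%, 2.27% and 0% in Cre-positive mice and 0% in each Cre-negative mouse. In those with 1 gene it was 0%, 0.103% and 0.162% in Cre-positive mice and 0% in each Cre-negative mouse.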

How the data were processed

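The deposited values were UMI counts per gene and barcode, made with Cell Ranger 6.1.2 on mm10 per the submitters' processing notes, with 31053 features. The annotation release is not given in the sources used here, and gene positions are those of GENCODE on the same build. Groups came from the sample labels. Barcodes were filtered and gated as described above in Python 3.11.15 and scored for doublets with scanpy 1.11.5 at 0.8% per 1000 cells. Counts of the gated cells were summed per mouse and tested with the quasi-likelihood test of edgeR 4.0.16 in R 4.3.3 (filterByExpr, TMM, robust fit, Benjamini-Hochberg adjustment at 0.05), with log2 fold changes as Cre-positive over Cre-negative and SE from the fold change and F. The procedure was tested on simulated data. DESeq2 1.42.0, other filters, other gates and leaving out each mouse were alternatives. Intervals and limits of detection cover counting error only, and p-values measure the spread between 3 mice per group.

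The members and lists were chosen with earlier results of these data known. Named genes were those of the gate, up to 12 passing genes per direction at a mean of 5 CPM or more or else the 10 of smallest p, up to 8 most abundant tested members of each list, the earlier-noted genes, and the passing interaction genes. In each list the text gives the members of that selection that a sentence turns on. Results for the floxed gene, and for a few further genes, are left out.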

Additional observations from a re-analysis of the deposited data

Results flagged for a closer look

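For 2 genes the genotype difference in gated cells differed from that in the CD8 T cells without the 6 genes, by an interaction fitted to 12 sums with edgeR, blocked by mouse. H2-Ab1 differed by 2.49 (SE 0.312, adjusted p = 8.32e-08) on the log2 scale. In gated cells it was 49.8 ± 1.91 CPM in Cre-positive mice and 16.5 ± 0.608 CPM in Cre-negative mice, and in the cells without the 6 genes 22.0, 11.4 and 31.4 CPM in Cre-positive mice and 48.1, 21.8 and 44.2 CPM in Cre-negative mice. H2-Eb1 differed by 1.82 (SE 0.309, adjusted p = 4.19e-04). In gated cells it was 47.5, 53.6 and 60.8 CPM in Cre-positive mice and 15.9, 16.7 and 32.1 CPM in Cre-negative mice, and in the cells without the 6 genes 19.1, 19.3 and 27.9 CPM in Cre-positive mice and 20.8, 14 and 57.5 CPM in Cre-negative mice. Without the cells of 20 or more class II UMIs neither passed, but those cells were chosen on UMIs of these genes, so this is no test. There were 24 such cells in the gate and 2 without the 6 genes. Of the 24, 19 carried Ccl5, which the gate reads and the other class lacks by definition. The interaction of the 2 genes therefore cannot be told apart from the gate.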

How the results depend on the processing

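In gated cells 3 genes passed. DESeq2 called 6, edgeR without the low-count filter 37, doublet removal left 1, removal of cells with markers of other types gave 7, at least 1 of Ccl5, Cxcr3, Gzmk and Eomes gave 5, and removal of the cells of 20 or more class II UMIs left 1. At least 3 of the 6 genes gave 3, with Atf3 and Ptms higher and S100a4 lower in Cre-positive mice. At least 2 genes without Nkg7 gave the same 3. Trim59 did not pass in these 2 gates (log2 fold change 0.67 and 0.61, adjusted p = 0.1 and 0.201 by edgeR). None passed with at most 5% mitochondrial UMIs (546 at an unadjusted p under 0.05), with Nkg7 and Il2rb alone (449) or with 4 or more genes (261). Leaving out 1 mouse gave 1 to 9 calls. In the cells without the 6 genes, 1 gene passed, 0 with DESeq2 (91 unadjusted), 3 without the filter, and 0 to 7 without 1 mouse. The interaction passed for 2 genes, for 4 without the filter, 5 with at least 3 genes, 1 against the cells with 1 gene, 0 without the class II cells, and 2 to 6 without 1 mouse. The labels do not say whether equal replicate numbers pair the mice. Same-number correlations were -0.0229, -0.154 and 0.198 over 4789 genes. Those of unlike numbers lay between -0.185 and 0.257, so so few values cannot decide it. With the replicate block 16 genes passed in gated cells and 2 in the cells without the 6 genes, and the share differed by -0.641 points. The gated share turned its direction with at least 1 gene (0.605 points), at least 3 (0.416), 3 thinned to 2000 UMIs (0.359), at least 4 (0.818), without Nkg7 (0.585), without cells of other-type markers (0.0539) and thinned (1.37), and ranged from -2.12 to 1.91 without 1 mouse, including 0.436. The log2 fold changes of Cd74 (-0.26), Napsa (-0.23) and H2-Eb1 (-0.31, and -0.25 with Nkg7 and Il2rb alone) turned without the class II cells, and that of Pmepa1 was -0.0134 with Nkg7 and Il2rb alone and ranged from -0.0573 to 0.106 without 1 mouse. The cause was not tested. The subsets by gate hold fewer cells. The gates on Nkg7 and Il2rb alone, on at least 1 of Ccl5, Cxcr3, Gzmk and Eomes, without Nkg7, on 4 or more genes, on 3 genes thinned to 2000 UMIs, on the class II cells and the class with 1 gene were chosen after seeing the data.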
